A study of Homo sapiens with 14 samples.

Results

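The Matrin 3 sites described here are peaks called for Matrin 3 in Jurkat cells at places where no SATB1, CTCF or H3K27ac peak was called. They are the peaks of Matrin 3 replicate 1 on chromosomes 1 to 22 and X that shared no base with a peak of 7 lists from control cells, namely 2 SATB1 lists, 3 CTCF lists and 2 H3K27ac lists. This left 2279 of 24566 peaks, or 9.28% (95% Wilson interval 8.92 to 9.65), called the lone peaks below. The other 22287 peaks of the list are the set they are compared with. CTCF lists removed 18957 peaks, H3K27ac lists 17454 and SATB1 lists 13136, and 5011 peaks were removed by 1 target only. The sites were thus chosen by the called peaks of those 7 lists, and the absence of the 3 targets is not a result.

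The series holds 14 CUT&Tag peak lists from Jurkat, an established human T cell leukaemia line. In CUT&Tag an antibody brings the Tn5 transposase to its target, and the DNA that is cut nearby is sequenced. CTCF (3 lists) and H3K27ac (2 lists) were profiled in cells carrying a lentiviral shRNA against SATB1 (shSATB1), and SATB1 (2 lists), CTCF (3 lists) and H3K27ac (2 lists) in cells carrying a control shRNA (shCtrl). The 2 Matrin 3 libraries have Jurkat on their labels and no shRNA, so the cells of the Matrin 3 lists and of the lists that removed peaks may differ in the lentivirus they carried. Whether the replicates were separate cultures is not in the labels. Replicate 2 held 2105 Matrin 3 peaks, and calling stopped at a total signal of 1372 there and of 3945 in replicate 1, on the authors' unscaled signal. The number of reads behind each list is unknown, so a site with no peak is a site not called at the depth of that list, and the target may still be there. In these lists a Matrin 3 replicate 1 peak lay at an end of 18 of 20 genes of T cell receptor signalling, against 5 of 12 B cell, 3 of 14 myeloid and 2 of 12 erythroid marker genes and 49.3% of all protein-coding genes, but peaks measure no transcript.

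Matrin 3 is an abundant protein of the nuclear matrix, the insoluble scaffold left when soluble protein and most DNA are extracted from nuclei. It has zinc fingers and RNA recognition motifs and is known for binding introns and acting in splicing. SATB1 is a T cell chromatin organiser that also partitions with the nuclear matrix, CTCF marks insulators and loop anchors, and H3K27ac marks active promoters and enhancers.

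Few lone peaks lay on promoters, and the promoters they covered were poorer in G and C than those under the other Matrin 3 peaks. The windows compared are the 250 bases before an annotated transcript start in RefSeq GRCh38.p14. Such a window was overlapped by 167 lone peaks (7.33%) and by 7503 of the other peaks (33.7%). Of 34961 such windows, 212 (193 genes) were overlapped by a lone peak and 11479 by another Matrin 3 peak and no lone peak. Median G+C was 60% (quartiles 49.2 to 68.5) under lone peaks and 65.6% (58.8 to 72) under the other peaks, against 58.4% in all windows. The windows under lone peaks held a median of 16 CpG, against 22 under the other peaks and 11 in all windows. A GC box (GGGCGG) was found in 53.3% of windows under lone peaks, against 69.6% under other peaks and 42.7% of all windows. For the CCAAT box (CCAAT) the shares were 38.7%, 35.6% and 32.0%, and for the TATA box (TATAAA) 7.55%, 4.41% and 10.7%. The CTCF core (CCA, any 2 bases, AGG, any base, GGC) stood in 1 window under a lone peak (0.472%), against 1.25% under other peaks and 0.921% of all windows. The core of the base-unpairing elements that SATB1 is known to bind (AATA followed directly by TATT) also stood in 1 window (0.472%), against 0.122% and 0.601%. All motifs were searched on both strands and a match is a description of these letters, not a binding site. The rule removed every site with a CTCF, SATB1 or H3K27ac peak, so these contrasts with the other peaks can follow from that choice. The shares of the CTCF core and the SATB1 core under lone peaks rest on 1 window each.

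The promoter windows below show this range. TSPAN13 and LCA5 lay under the lone peaks with the highest maximum signal that reached a promoter window (62 and 55). AGPAT4 was chosen after its values were seen, as a window with less G+C under a strong lone peak (maximum signal 42). FBXW7 had the 1 window under a lone peak that Matrin 3 replicate 2 also called, and a second start under a lone peak that it did not call. Capitals mark the GC, CCAAT and TATA box matches on either strand, each window lies wholly inside its peak, and each is written 5′ to 3′ on the strand of its gene.
TSPAN13 (chr7:16753505-16753754, plus strand): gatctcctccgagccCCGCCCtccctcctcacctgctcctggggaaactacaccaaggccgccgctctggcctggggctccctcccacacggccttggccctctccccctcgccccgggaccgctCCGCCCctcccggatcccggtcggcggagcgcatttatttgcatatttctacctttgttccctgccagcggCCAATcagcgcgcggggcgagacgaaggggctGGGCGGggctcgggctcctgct
LCA5 (chr6:79537431-79537680, minus strand): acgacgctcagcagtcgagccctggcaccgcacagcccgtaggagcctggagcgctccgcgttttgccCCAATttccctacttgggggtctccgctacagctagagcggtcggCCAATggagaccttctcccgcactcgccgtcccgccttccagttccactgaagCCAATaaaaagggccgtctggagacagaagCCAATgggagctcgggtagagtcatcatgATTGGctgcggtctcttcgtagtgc
AGPAT4 (chr6:161274062-161274311, minus strand): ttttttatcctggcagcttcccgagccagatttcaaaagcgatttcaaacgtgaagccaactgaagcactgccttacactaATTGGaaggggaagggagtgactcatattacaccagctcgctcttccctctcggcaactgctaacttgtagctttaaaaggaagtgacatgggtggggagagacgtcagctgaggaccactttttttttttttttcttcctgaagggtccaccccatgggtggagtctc
FBXW7 (chr4:152352827-152353076, minus strand): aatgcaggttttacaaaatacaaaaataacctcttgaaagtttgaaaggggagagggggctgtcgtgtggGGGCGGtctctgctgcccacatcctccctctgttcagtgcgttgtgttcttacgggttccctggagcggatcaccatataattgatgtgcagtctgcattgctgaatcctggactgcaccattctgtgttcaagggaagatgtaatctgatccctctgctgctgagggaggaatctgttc
FBXW7 (chr4:152382530-152382779, minus strand): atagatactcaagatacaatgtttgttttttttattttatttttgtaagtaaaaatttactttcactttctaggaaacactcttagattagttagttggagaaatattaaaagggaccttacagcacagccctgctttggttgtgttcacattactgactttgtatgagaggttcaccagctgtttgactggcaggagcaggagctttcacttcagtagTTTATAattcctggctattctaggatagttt
The windows run from 22 CpG and 70% G+C at TSPAN13, a tetraspanin gene, to 0 CpG and 34.4% G+C at the second FBXW7 start. LCA5, the gene of the ciliary protein lebercilin, had 5 CCAAT matches and no GC box match, and AGPAT4, an acyltransferase of phospholipid synthesis, had 6 CpG in 47.6% G+C.

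The lone peaks were weak and somewhat narrow within their own list. The authors' maximum signal of a lone peak had a median of 17 (lowest 5, highest 355), against 27 for the other peaks. Ranked within the list, from 0 for the weakest to 100 for the strongest, the median percentile of maximum signal was 25.7 for lone peaks and 53.3 for the other peaks. With the list split into 4 near-equal bins by maximum signal, 48.2% of the lone peaks fell in the lowest bin and 1.93% (44 peaks) in the highest. Their median width was 900 bp (quartiles 723.5 to 1149.5), against 1132 bp (874 to 1516). The total signal summed over a peak had a median of 4972 for lone peaks, close to the lowest value called, and 9502 for the other peaks. Flatness, the mean signal of a peak divided by its maximum, had a median of 0.356 for lone peaks and 0.314 for the other peaks. In the lowest bin flatness was 0.396 for lone peaks and 0.402 for the other peaks, and in the highest 0.254 and 0.243. No test was run on these values, since peaks of 1 list are not replicates. A wide peak has more bases that can meet a removing peak, so the rule itself bears on width.

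**Figure D1:**
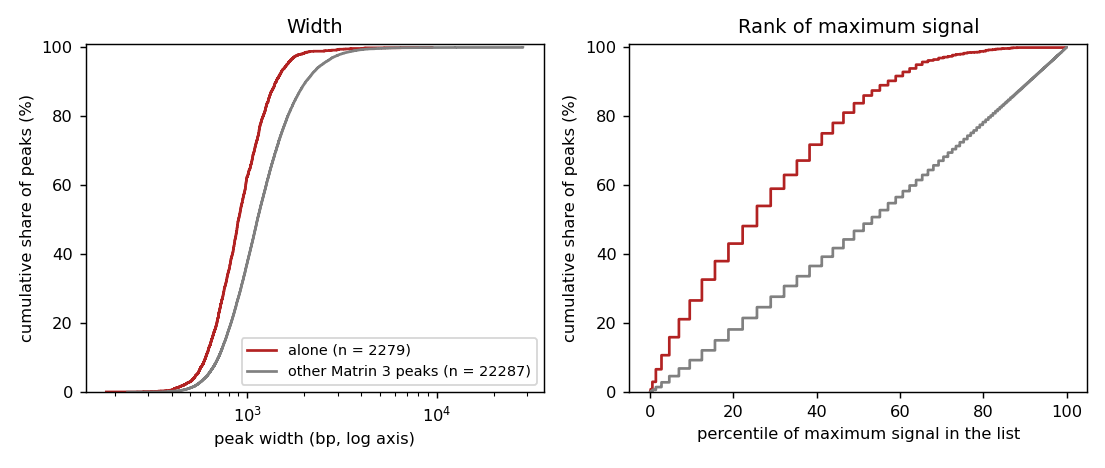
Cumulative share of peaks (%) by width (bp, log axis, left) and by the percentile of maximum signal in the Matrin 3 replicate 1 list (right), for the 2279 lone peaks (red) and the 22287 other peaks (grey). The red curves lie to the left in both panels, with medians of 900 bp and percentile 25.7 for the lone peaks, against 1132 bp and percentile 53.3 for the others.

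Most lone peaks were far from the peaks that could have removed them. The median gap to the nearest SATB1, CTCF or H3K27ac peak of the control lists was 12981 bp, and 1307 lone peaks (57.3%) were more than 10 kb away. Within 1 kb there were 180 (7.90%). Just inside the rule were 19 lone peaks within 100 bp of a removing peak, with a median width of 872 bp and a median percentile of 25.7. Just outside it were 7 removed peaks that were covered by at most 100 bp, with a median width of 1157 bp and a median percentile of 9.54.

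The strongest lone peaks lay in or near genes of many kinds. The highest maximum signal, 355, was at chr1:629839-630386 (GRCh38, 548 bp), inside the uncharacterised locus LOC102724250. The stretch overlaps MTND2P28, a nuclear pseudogene copy of a mitochondrial gene, so reads of the mitochondrial genome and of this copy may not be told apart. The alignment filter is not known. The next highest was far below, at 67, in PLXNA4, a semaphorin receptor gene (chr7:132485473-132486355). Peaks of 62 lay in SND1, the gene of a nuclease that binds RNA (chr7:127905131-127906643), and over an end of TSPAN13 (chr7:16753223-16754024). FBXO34, an F-box gene, had 58, and the cilium gene SCLT1 and the phosphatase gene CDC14A had 57 each. Outside genes, the nearest were FUT8, a fucosyltransferase (64, at a distance of 248671 bp), PSMA6, a proteasome subunit (63, 23985 bp) and FOXO1, a forkhead transcription factor (61, 69381 bp). Of these 10, replicate 2 called the LOC102724250 peak and none of the other 9.

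The widest lone peaks were of another kind, wide and low. The widest, 9442 bp with a maximum signal of 13, was in MET, the receptor tyrosine kinase for hepatocyte growth factor (chr7:116675843-116685284). It was followed by 4206 bp in the MAP kinase pathway gene BRAF (maximum 13), 4139 bp in the kinase gene NEK7 (maximum 10) and 4029 bp over the imprinted zinc finger genes PEG3 and ZIM2, which share the region (maximum 17). FGFR3, a fibroblast growth factor receptor, had 3537 bp (maximum 8), and a peak of 3301 bp lay 7681 bp from UBE3A, a ubiquitin ligase gene (maximum 7). NFE2L3 (3025 bp, maximum 8) and LEF1 (3022 bp, maximum 11) encode transcription factors, LEF1 one of the T lineage. BCOR (2959 bp, maximum 16) encodes a corepressor, and ATRX (2748 bp, maximum 13) a chromatin remodeller. All 10 maxima were at or below 17, the median of the lone peaks.

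Replicate 2, which the choice of the lone peaks did not use, called 50 of the 2279 lone peaks (2.19%, interval 1.67 to 2.88). Over all Matrin 3 replicate 1 peaks the share was 6.92%, and over the other peaks 1650 of 22287 (7.40%, interval 7.07 to 7.75). The intervals do not overlap, but they cover counting error only, and with 1 library in each list the difference has no replicate check. The replicate 2 list is 2105 peaks long, so most peaks of replicate 1 could not be in it.

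The few lone peaks found again were wide and had low maxima. Among lone peaks, those called in replicate 2 had a median maximum signal of 12 (percentile 9.54) and a median width of 1679.5 bp, and those not called had 17 (percentile 25.7) and 893 bp. Among the other Matrin 3 peaks the order of maximum signal was the opposite. Those called in replicate 2 had a median maximum signal of 107 (percentile 95.4), and those not called had 25 (percentile 49.0). The total signal of a peak, which grows with its width, was higher in those called again in both sets. Its median percentile was 46.3 in lone peaks called again and 17.6 in those not called, and 95.3 and 50.8 in the other peaks. In the lowest bin of maximum signal, replicate 2 called 42 of 1098 lone peaks (3.83%, interval 2.84 to 5.13) and 7 of 4793 other peaks (0.146%, 0.0708 to 0.301). In the 2nd bin it called 0.616% and 0.337%, and in the 3rd 0.308% and 1.26%. In the highest bin it called 2 of 44 lone peaks (4.55%, interval 1.26 to 15.1) and 1552 of 6131 other peaks (25.3%, 24.2 to 26.4). That bin does not match signal between the sets. Apart from LOC102724250, no lone peak had a maximum above 67 (percentile 88.2), while other peaks reached 659. The other peaks called again had a lower quartile at percentile 89.7. The share called again thus grew with maximum signal from bin to bin among the other peaks, and not among the lone peaks. With the upper 50% of the list by total signal alone, 15.1% of 152 lone peaks were called again. Of these 152, 10 lay in MET and 4 in BRAF. The share of the other peaks called again in that upper 50% was not computed, so this value has no comparison.

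**Figure D2:**
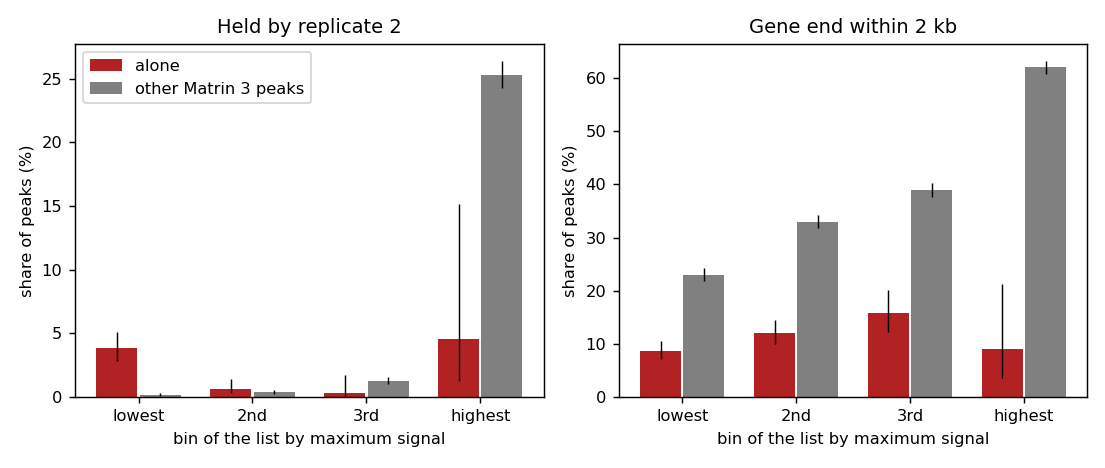
Share of peaks (%) called in Matrin 3 replicate 2 (left) and with a protein-coding gene end within 2 kb (right), in each bin of the Matrin 3 replicate 1 list by maximum signal, for lone peaks (red) and other peaks (grey). Bars start at 0 and lines are 95% Wilson intervals. In the lowest bin 3.83% of lone peaks were called again, against 0.146% of the others, and in the highest bin 4.55% against 25.3%. Maximum signal is not matched between the sets within the highest bin.

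MET and BRAF held 26 of the 50 lone peaks that replicate 2 called. A peak in both lists shows that signal was called there in both libraries, and whether it came from Matrin 3 or from another source of reads was not tested. Reads of another library, for example a gene panel, mixed into both Matrin 3 libraries could not be told apart in peak lists. The same doubt covers the peaks called again in other cancer genes, such as EGFR, NF1, FGFR3, ACVR1, MYB, QKI, ATRX and BCOR. MET (chr7:116672196-116798377, 126.182 kb) held 17 Matrin 3 replicate 1 peaks. All 17 were lone peaks and all 17 were called in replicate 2. They were 910 to 9442 bp wide with maximum signals of 9 to 19, and together covered 54.6 kb, or 43.3% of the gene. Replicate 2 had 35 peaks there, with maximum signals of 4 to 19, over 59.6 kb. Each of the other 12 lists, SATB1, CTCF and H3K27ac in either arm, had 0 peaks in MET. The first 11 lone peaks formed one run at chr7:116672275-116718132, with gaps of at most 5 kb and 77.8% of its 45.9 kb covered.

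BRAF (chr7:140713328-140924929) held 11 Matrin 3 replicate 1 peaks, 10 of them lone peaks, and replicate 2 called 9 of the 10. The lone peaks were 746 to 4206 bp wide with maximum signals of 9 to 14 and covered 9.45% of the gene. Replicate 2 had 25 peaks in BRAF. No SATB1 or H3K27ac list had a peak in BRAF. CTCF peaks in the gene numbered 0, 1 and 2 in the shSATB1 lists and 2 in each of the 3 shCtrl lists.

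**Figure D3:**
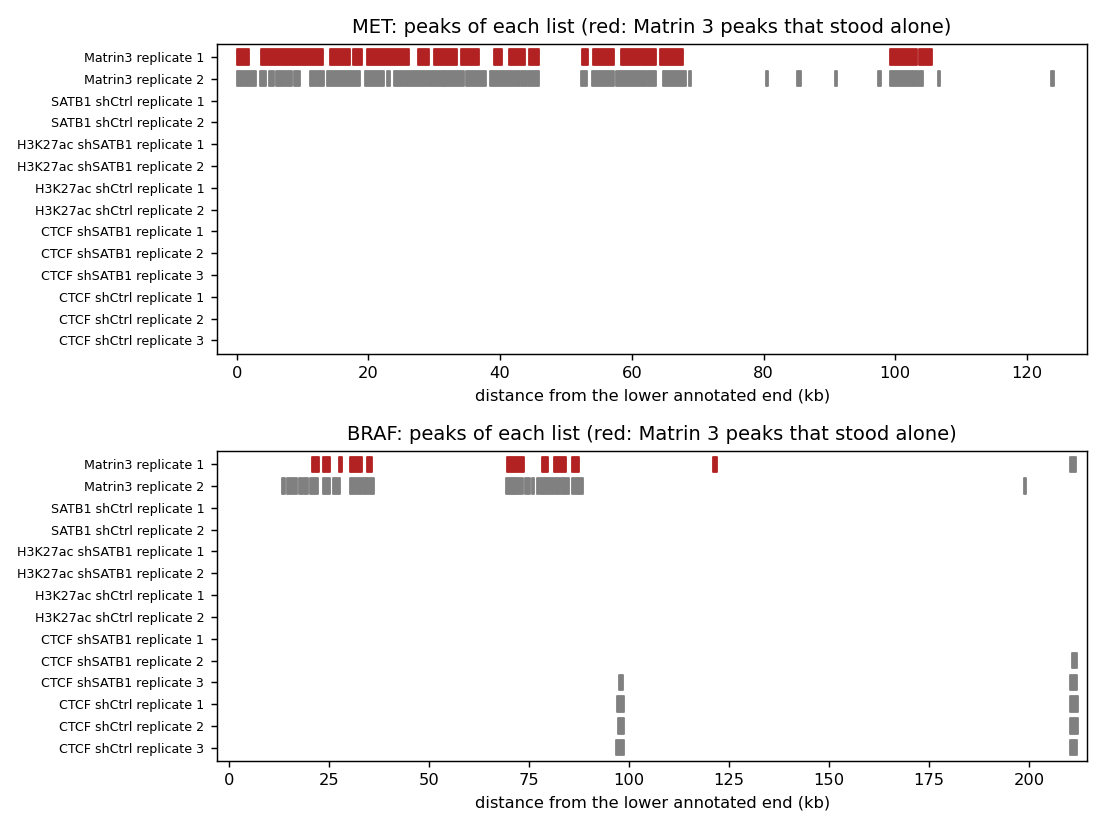
Peaks of all 14 lists (rows) along MET (top) and BRAF (bottom), by distance in kb from the annotated end with the lower coordinate. Red bars are lone Matrin 3 replicate 1 peaks and grey bars are all other peaks. Replicate 2 peaks lie over all 17 red bars of MET and also at places with no red bar, and the other 12 rows are empty in MET.

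Outside MET and BRAF, a split made after their values were seen, replicate 2 called 24 of 2252 lone peaks (1.07%, interval 0.717 to 1.58). In the lowest bin it then called 18 of 1073 (1.68%, interval 1.06 to 2.64), still above the 0.146% of the other peaks there. These 24 peaks had a median width of 1292 bp and a median maximum signal of 13. They and the 26 in MET and BRAF lay in 21 protein-coding genes, and 2 lay outside genes. Beyond MET, BRAF, FGFR3, PEG3 and ZIM2, BCOR and ATRX, the 50 peaks touched receptor and signalling genes (EGFR, ACVR1, NF1 and PIK3R1), the haematopoietic transcription factor gene MYB, the splicing regulator gene QKI and the ubiquitin ligase component FBXW7. MYB held 3 of them, next to each other, covering 87.6% of 4.07 kb, and QKI and FGFR3 held 2 each. Others were KMT5B, a histone methyltransferase, PPP6R3, APPBP2, the calsyntenin gene CLSTN2, MARCHF11 and the locus LOC102724250, and the 2 peaks outside genes were nearest to ETV1 and CDK6. Apart from those the naming rule gave, these genes were chosen after their values were seen.

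By the mean percentile of both Matrin 3 lists, LOC102724250 stood first, with maximum signals of 355 in replicate 1 and 51 in replicate 2. FBXW7 had 24 and 15, MET 17 and 19, PEG3 and ZIM2 17 and 18, BCOR 16 and 15, and EGFR 15 and 15. BRAF had 14 and 16, ACVR1 13 and 17, MARCHF11 33 and 8, and CLSTN2 45 and 7. The maximum signals of the lists are not on a common scale and are given side by side only. Replicate 2 peaks covered a median of 86.4% of the width of the 50 lone peaks they called, 98.3% at BCOR and 19.7% at LOC102724250.

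Other genes held several lone peaks that replicate 2 did not call. GNAQ, a G protein alpha subunit gene (chr9:77716097-78031811), had 11 lone peaks among 47 Matrin 3 replicate 1 peaks, and none of the 11 was called in replicate 2. Unlike MET, GNAQ also had 20 and 24 SATB1 peaks and 21 H3K27ac peaks in each of the 2 shCtrl lists. The cell polarity gene PARD3 had 8 lone peaks among 16, and the Rac regulators ARHGAP15 and ELMO1, SND1 and the kinase gene STK39 had 6 each. In all, 1115 of 19974 protein-coding genes (5.58%) overlapped a lone peak, 893 of them a single one and 29 at least 4. Genes with a lone peak had a median length of 130 kb, against 22.1 kb for genes without one. A long gene has more bases that can meet any peak, and genes under the other Matrin 3 peaks were not compared. Lone peaks were mostly scattered, for 92.2% of them had no other within 5 kb. There were 68 pairs and 10 runs of 3 or more, and the 10 runs held 42 peaks. Besides those in MET, BRAF and MYB, the runs lay in CDKAL1, DIAPH3, SRPK2 and TMEM123 and outside genes at chr1:198848099-198854374, where PTPRC was the nearest gene, with 3 lone peaks each and none called in replicate 2.

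Lone peaks were placed inside genes more than at their ends. A protein-coding gene end lay within 2 kb of 248 lone peaks (10.9%, interval 9.67 to 12.2), against 37.6% of all Matrin 3 replicate 1 peaks and 40.4% of the other peaks. The gene table used gives no strand and no exons, so either annotated end counts and exonic and intronic peaks are not separated. Another 53.8% of lone peaks lay inside a gene away from its ends, against 36.1% of the other peaks, and 35.4% lay outside genes, against 23.6%. The gap at gene ends was present in each bin of maximum signal, with 8.65%, 12.1%, 15.7% and 9.09% of lone peaks from the lowest to the highest bin and 23%, 32.9%, 38.9% and 62.1% of the other peaks. The highest bin does not match signal, since apart from LOC102724250 its lone peaks had maxima of at most 67, and other peaks reached 659. H3K27ac marks active promoters, so the rule itself removes many peaks at gene ends and these shares are a description. An annotated lncRNA was overlapped by 16.3% of lone peaks and 19.7% of the other peaks. Of small RNA genes, the lone peaks overlapped 1 miRNA gene (MIR2277), 1 tRNA gene (TRK-CTT1-1) and 1 snoRNA gene (LOC124902347).

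Gene groups that fit the proteins and the cell type had lone peaks at their ends about as rarely as all genes, while most of their genes carried another Matrin 3 peak there. Over all protein-coding genes 1.33% had a lone peak within 2 kb of an end, 49.3% any Matrin 3 replicate 1 peak, and 5.58% a lone peak in the gene. Of 20 genes of the nuclear matrix and lamina, 0 had a lone peak at an end and 19 had a Matrin 3 peak. The counts were 0 and 18 of 20 for RNA-binding and splicing factors, and 0 and 20 of 20 for CTCF, cohesin and other architecture genes. For cell cycle genes they were 0 and 20 of 20, and for cytosolic ribosomal proteins 0 and 74 of 84. A lone peak lay at an end of 1 of 20 genes of T cell receptor signalling, the coreceptor gene CD8B (chr2:86815597-86816320, maximum 21). T-lineage transcription factor genes had 0 of 20 at an end but 6 of 20 with a lone peak in the gene, namely ETS1, LEF1, MYB, RUNX1, TCF12 and TOX. Over all genes of the list that was 12 lone peaks, or 5.99 per megabase of gene, against 1.14 over all protein-coding genes, and 3 of the 12 were those in MYB. Also above 1.14 were T cell receptor signalling (4.94), oxidative phosphorylation subunits (2.09), B cell markers (1.89) and RNA-binding and splicing factors (1.41). All other lists were at 1.10 or below. The density of all Matrin 3 peaks in these genes was not computed.

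Marker genes of other cell types and several gene families had counts at their ends near the share of all genes as well. Anywhere in the gene, a lone peak lay in 2 of 12 B cell markers (CR2 and EBF1), 0 of 14 myeloid and 0 of 12 erythroid markers, against 5.58% of all genes. B cell, myeloid and erythroid markers had 0 of 12, 0 of 14 and 0 of 12 at an end, replication-dependent histones 0 of 69 and clustered protocadherins 0 of 53. Olfactory receptors had 1 of 392 (OR4D9, maximum 21), neuronal and synaptic genes 1 of 20 (SNAP25, a vesicle fusion protein, maximum 10) and oxidative phosphorylation subunits 1 of 82 (NDUFS4, maximum 25). Common fragile site genes, which are very long, had 1 of 20 at an end (FHIT, maximum 20) and 9 of 20 with a lone peak in the gene. Per megabase of gene that was 0.646 lone peaks, against 1.14 over all protein-coding genes. Of zinc finger genes named ZNF, 9 of 509 (1.77%) had a lone peak at an end, by percentile ZNF726, ZNF827 and the neighbours ZNF10 and ZNF891, which share 1 peak, coming first. In all, 14 of 1386 listed genes had one (1.01%), close to the 1.33% of all genes. MATR3 and SATB1 themselves held no lone peak, with 2 and 7 Matrin 3 replicate 1 peaks.

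Lone peaks made up different shares of the Matrin 3 peaks on different chromosomes. Each share counts what the 7 removing lists left, so it depends on where their peaks lay, which was not compared by chromosome. The share was highest on chromosome 7, where 191 of 1236 peaks were alone (15.5%, interval 13.5 to 17.6), followed by chromosomes 8 (13.4%), 6 (12%), 4 (11.9%) and 3 (11.8%). It was lowest on chromosome 19, with 14 of 890 (1.57%, interval 0.939 to 2.62), and low on chromosomes 22 (3.72%), 16 (4.04%) and 17 (4.18%). Chromosome 19 held 0.614% of the lone peaks and 3.62% of all Matrin 3 replicate 1 peaks. Without MET and BRAF chromosome 7 still held 164 lone peaks, or 13.3% of all its 1236 Matrin 3 peaks, those in MET and BRAF included. Of the 50 lone peaks called in replicate 2, 29 lay on chromosome 7, 5 on chromosome 6 and none on chromosome 8.

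**Figure D4:**
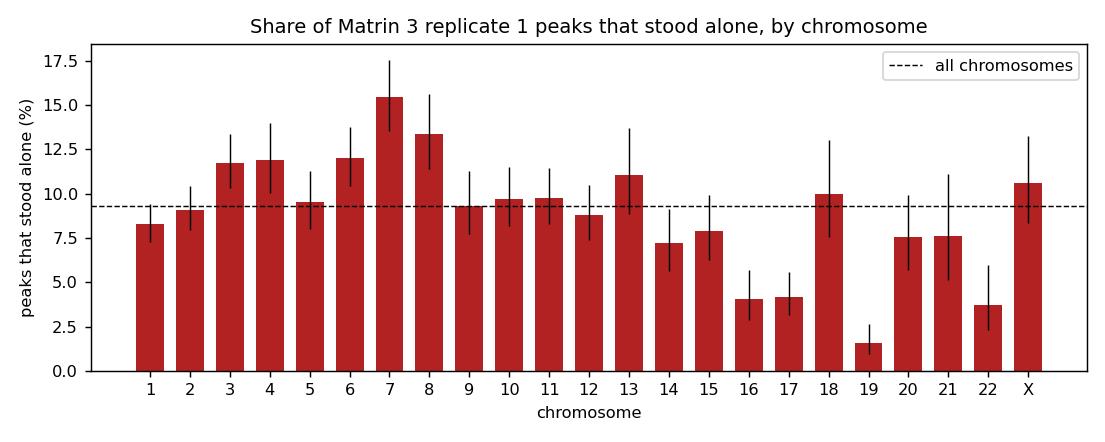
Lone peaks as a share (%) of the Matrin 3 replicate 1 peaks of each chromosome, with 95% Wilson intervals. The dashed line is the share over all chromosomes, 9.28%. Chromosome 7 is highest at 15.5% and chromosome 19 lowest at 1.57%.

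The lists from SATB1 knockdown cells, which did not enter the rule, had few peaks at these sites. H3K27ac shSATB1 replicates 1 and 2 called 166 (7.28%) and 98 (4.30%) of the lone peaks, against 67.9% and 62.5% of all Matrin 3 replicate 1 peaks. The 2 lists together called 207 (9.08%, interval 7.97 to 10.3), against 70.6%, and 57 were in both (2.50%), against 59.8%. The lone peaks had no H3K27ac peak in shCtrl by the rule, so calls could only be added in shSATB1 and none lost. These shares thus show no direction of change. Calling also went lower in shSATB1, to total signals of 4405 and 4476, against 6836 and 6653 in shCtrl, on the authors' unscaled signal. A site with equal signal in both arms could therefore be called in shSATB1 only. Low shares beside all Matrin 3 peaks also follow in large part from that rule. Those called were nearer to H3K27ac peaks of shCtrl cells. Their median gap to one was 8858 bp and 25.6% were within 2 kb, against 34499 bp and 6.61% for the lone peaks not called. Replicate 2 of Matrin 3 called 1 of these 207, a peak in MYB. By percentile the first called in both H3K27ac shSATB1 lists were in CDC14A (maximum 57), near the small GTPase gene RAP1B (40), in VPS39, a gene of vesicle tethering (39), near RAP2B (35) and in the transporter gene MFSD1 (35).

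CTCF peaks were almost absent from the lone peaks in knockdown cells as well. The rule had removed every site with a CTCF peak in shCtrl cells, so a low share follows largely from the choice of sites. The 3 shSATB1 lists were also shorter, with 14695, 17904 and 20284 peaks, against 31270, 31141 and 32540 in shCtrl. CTCF shSATB1 replicates 1, 2 and 3 called 0, 1 and 2 of the 2279. In any of the 3 lists that was 2 lone peaks (0.0878%, interval 0.0241 to 0.319), against 53% of all Matrin 3 replicate 1 peaks, and in all 3 lists it was 0, against 36.2%. One lay in PRR5L, which encodes a partner of an mTOR complex (chr11:36321463-36322292), and was called in replicate 3. The other lay in the diacylglycerol kinase gene DGKQ (chr4:972789-973804) and was called in replicates 2 and 3.

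With the same rule applied to Matrin 3 replicate 2, 422 of its 2105 peaks were alone, and 74 of the 422 (17.5%) overlapped a replicate 1 peak. Of all 2105 peaks of replicate 2, 1735 (82.4%) overlapped replicate 1. Those 422 peaks had a median width of 455 bp, against 535 bp for the whole replicate 2 list.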

How the data were processed

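Each of the 14 lists holds one sample's peaks, with the total and maximum signal of each peak as the authors deposited them, and no scaling is recorded. The submitters' processing notes name SEACR, deepTools, SAMtools, Bowtie2 and Trim Galore for the Matrin 3 lists, and the build GRCh38. The sources used here give no tool version, alignment filter or control library. Depth is unknown.

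Overlap meant at least 1 shared bp. Some genes under lone peaks are not reported here. The 405 peaks off chromosomes 1 to 22 and X, 30 of them in Matrin 3 replicate 1, were left out. Percentiles rank maximum signal within a list, ties sharing a mean rank. Genes were taken from RefSeq GRCh38.p14 (19974 protein-coding). Intervals are 95% Wilson intervals and cover counting error only. Peaks were named by an overlapped gene, else the nearest, and positions are 1-based. The named genes were those of the 10 strongest and the 10 widest lone peaks, the 10 ranked highest among those called in replicate 2, up to 5 called in all lists of a knockdown group, the 5 genes with most lone peaks, up to 4 per gene list, MATR3 and SATB1. Where the fifth gene was tied, all tied genes were named. The sites and lists were chosen with earlier results of these data known. Alternatives were other overlap rules, a stricter threshold, other gene windows and leaving out each list. As a check of the overlap code only, 2000 simulated peaks were planted to share 1 bp with peaks among the 24566, and 100% were recovered. Software was pandas 2.3.3, numpy 2.4.6, scipy 1.17.1 and matplotlib 3.10.9 under Python 3.11.15.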

Additional observations from a re-analysis of the deposited data

How the results depend on the processing

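Each main value was computed again under 1 or more alternatives. Of these recomputed values 17 moved beyond their limits and 73 did not. The limits were the interval of the main value or, for counts, a fixed ratio to it. Only values of the lone peaks were computed again, so whether their contrasts with the other peaks held or reversed was not tested. The median percentile stayed at 25.7 under the other overlap rules and with each removing list left out. The number of lone peaks was 2099 when peaks within 1 kb also removed a site and 2342 when 50% of a site had to be covered. The stricter threshold, the upper 50% of the list by total signal, changed most: it left 152 lone peaks, with a median width of 1187.5 bp, a median percentile of 60.7, 15.1% called in replicate 2, 16.4% at a gene end, 1.32% on chromosome 19, 0% called in CTCF shSATB1 and 13.2% in H3K27ac shSATB1. By construction it keeps stronger peaks. MET then kept 10 lone peaks, BRAF 4, GNAQ 2 and PARD3 0. Gene windows of 1 kb and 5 kb gave 8.25% and 16.7% at a gene end, and whole gene bodies 48 listed genes in place of 14. The H3K27ac shSATB1 share was 7.38% when peaks within 1 kb also removed a site. With each list left out in turn it ranged from 8.99% to 12%, with the 2 highest values, 12% and 11.8%, without H3K27ac shCtrl replicates 1 and 2. The number of lone peaks ranged from 2335 to 2464 without a removing list and was 422 without Matrin 3 replicate 1, when replicate 2 took its place. Median width then ranged from 896 to 909 bp, the replicate 2 share from 2.07% to 2.14%, gene ends from 10.5% to 11.7%, chromosome 19 from 0.568% to 0.741% and CTCF shSATB1 from 0.0812% to 0.247%. Chosen after seeing the data, leaving out MET and BRAF gave 1.07% called in replicate 2, and only sites over 2 kb from H3K27ac shCtrl peaks gave 7.37% in H3K27ac shSATB1. No paired analysis was possible because these values come from no test. Depth is unknown, so an uncalled site says nothing below the calling limit of its list.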
